A study of Homo sapiens with 6 samples.

Results

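The clustered replication-dependent histone genes encode the bulk histones that package newly copied DNA. They were taken here as all protein-coding rows of the deposited gene table whose symbol begins with HIST1H, HIST2H, HIST3H or HIST4H, which gave 71 of 58735 genes. Of these, 6 encode the linker histone H1, 17 encode H2A, 18 encode H2B, 15 encode H3 and 15 encode H4. The HIST1 cluster on chromosome 6 holds 55 of them (chr6:25726132-27893843, GRCh38) and HIST2 on chromosome 1 holds 12. A further 3 form HIST3 (chr1:228424845-228460470) and 1 is HIST4 (chr12:14767999-14771131). Another 19 histone-named rows carry other biotypes, mostly pseudogenes, and are not members.

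RNA was sequenced from HaCaT, a line of human skin keratinocytes that became immortal spontaneously and is labelled wild type, in 3 samples treated with dacomitinib for 48 h and 3 control samples. Dacomitinib irreversibly blocks EGFR and related receptor kinases. Per the series' design text, cells were at 70% confluence when treatment began, and 0.1% DMSO is named for the experimental group. The sources used here do not give the dose or what the controls received. They also do not say whether samples of a group were separate cultures, so a p-value reflects only the spread of these samples, and that spread may be technical.

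Canonical histone mRNAs are made mainly in S phase, when DNA is replicated. Their genes typically lack introns, and most of their mRNAs end in a short stem-loop instead of a poly(A) tail. The stem-loop is bound by SLBP, the stem-loop binding protein, which directs cleavage just downstream of it and later translation. Some of these genes also give longer, polyadenylated mRNAs that run past the stem-loop, and such forms are known from differentiated and non-dividing cells.

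The libraries held 14960650 to 16179273 fragments on genes. Values are the authors' FPKM, in which fragments are scaled by the length of the gene and the size of the library. The dacomitinib columns of the table were assigned to their group by elimination, and the direction of every difference rests on that. Of the 6 keratinocyte markers examined, all were detected, and their summed level was 720 to 891 FPKM in dacomitinib libraries and 1023 to 1092 FPKM in control libraries. In the test described below, KRT5, KRT14 and KRT6A were lower with dacomitinib, KRT17 was higher, and TP63 and SFN were called in neither direction. The summed level of 12 markers of fibroblasts, endothelium, melanocytes and leukocytes was 13.8 to 17.0 FPKM in dacomitinib libraries and 3.33 to 3.80 FPKM in control libraries. COL1A2 and TYR were listed at 0 in all 6 libraries, and CDH5, an endothelial cadherin, made up most of the difference at 10.0 ± 1.39 FPKM with dacomitinib and 1.15 ± 0.0836 FPKM in controls (SD, n = 3 each). The part of these markers in the histone results was not tested. In bulk RNA, fewer cells that make a transcript and less of it per cell cannot be told apart.

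The stem-loop was looked for on the sense strand of the GENCODE release 29 transcripts as 16 bases, which read GG, any 2 bases, CTTTT, any base, AG, any 2 bases and CC. It was present in 44 of 100 member transcripts, from 31 of the 71 genes, and in 84 of 206594 transcripts of all other genes (0.0407%). The models of 33 members cover the coding region alone, so the sequence past it was not searched. A missing match in these members does not mean a missing stem-loop. The 6 examples below are from genes whose values the results turn on. Capitals mark the stem-loop and lower case the 5 bases on either side.
HIST1H2AC (chr6:26124664-26124689, plus strand): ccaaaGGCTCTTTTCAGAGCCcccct
HIST1H2BD (chr6:26158582-26158607, plus strand): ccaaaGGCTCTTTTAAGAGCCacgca
HIST2H2BE (chr1:149886183-149886208, minus strand): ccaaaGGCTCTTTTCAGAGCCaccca
HIST1H3G (chr6:26270918-26270943, minus strand): aaaaaGGCTCTTTTAAGAGCCgccta
HIST1H4H (chr6:26285126-26285151, minus strand): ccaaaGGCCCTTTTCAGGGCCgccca
HIST1H4I (chr6:27139649-27139674, plus strand): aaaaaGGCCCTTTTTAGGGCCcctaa
In both H4 genes the stem reads GGCCCT and AGGGCC, and in the other 4 genes it reads GGCTCT and AGAGCC. In HIST1H2AC the longest annotated transcript ran 1128 bases past the stem-loop, in HIST2H2BE 1729 bases and in HIST1H4H 1655 bases, and each of these transcripts ended with a poly(A) signal (AATAAA or ATTAAA within its last 50 bases).

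Of the 71 genes, 30 reached the mean of 1 FPKM over the 6 libraries that was set for testing. Among these 30, the limma test at a Benjamini-Hochberg adjusted p under 0.05 called 19 higher and 4 lower with dacomitinib, and 7 passed in neither direction. Of all 13748 genes tested, 25.4% were called higher and 34.8% lower. The median difference of the 30 genes was 0.82 on the log2(FPKM + 1) scale, and that of all genes tested was -0.06. The groups did not overlap for 25 of the 30, where 67.1% of all genes tested did not overlap. For 7 of the 30 (HIST1H2BE, HIST1H2BF, HIST1H2BN, HIST2H2BF, HIST2H3D, HIST3H3 and HIST1H4E) only the dacomitinib mean reached 1 FPKM, and for 2 (HIST1H2BO and HIST1H3G) only the control mean did. Of the 21 genes that reached it in both groups, 14 were higher and 3 lower.

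**Figure D1:**
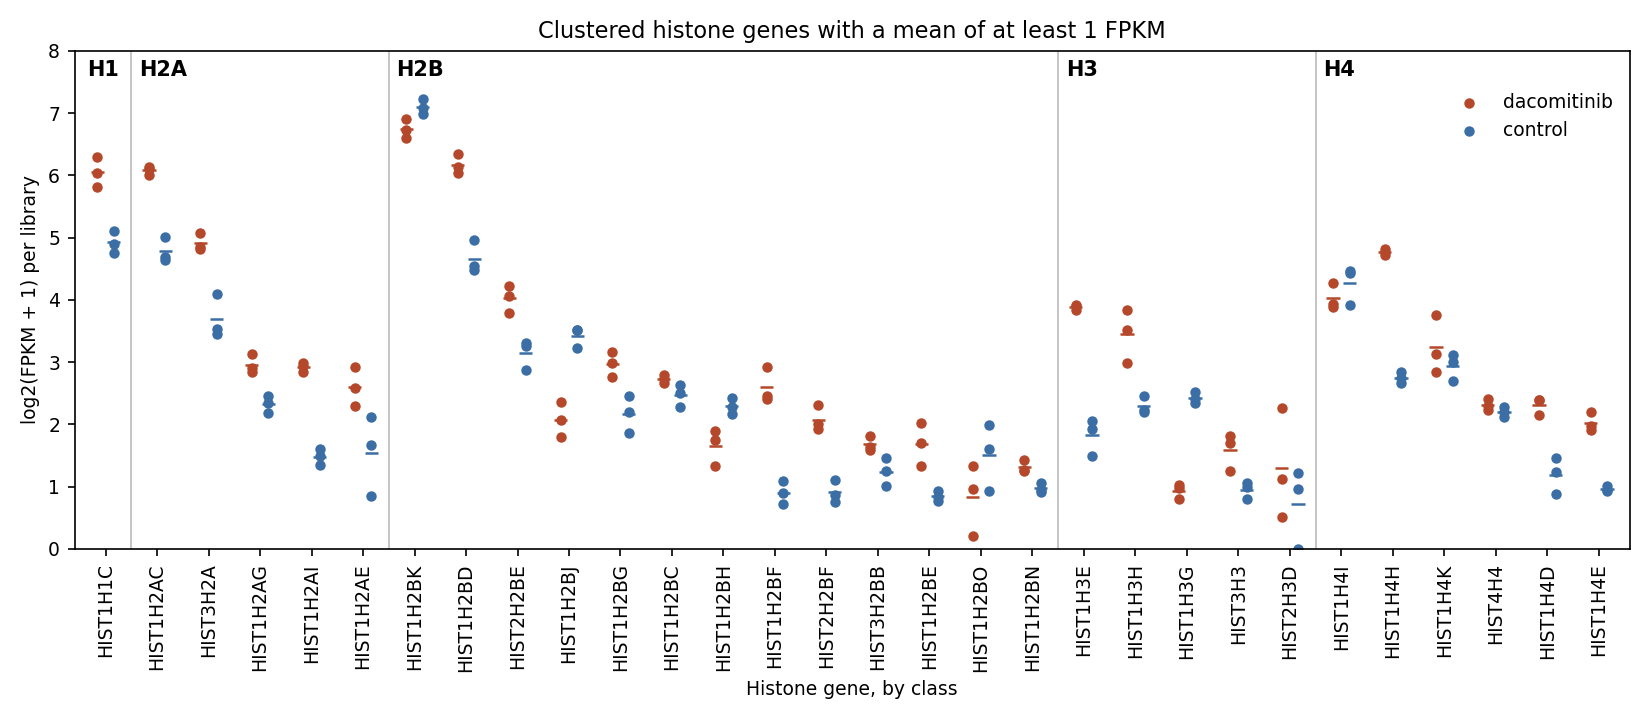
Level of each of the 30 tested histone genes on the log2(FPKM + 1) scale, by class. Points are libraries, dacomitinib in red on the left and control in blue on the right of each gene, and bars are means of 3 libraries. Red points lie above blue ones for most genes, with the opposite order and no overlap at HIST1H2BK, HIST1H2BJ, HIST1H2BH and HIST1H3G. At HIST1H2BO and HIST1H4I the red mean is also below the blue one, with overlapping points.

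H2A genes, which encode a core histone that pairs with H2B, rose without exception among those tested: 5 of 5 were higher. HIST1H2AC, the most abundant, had 69.0, 63.3 and 67.4 FPKM in the dacomitinib libraries, against 24.6, 31.1 and 24.0 FPKM in the controls. Every dacomitinib value was above every control value, with a log2 difference of 1.30 ± 0.10 (SE, adjusted p = 6.23e-05). HIST1H2AI showed the largest rise of the class, on the log2 scale and as a ratio of means. It had 6.65, 6.95 and 6.17 FPKM with dacomitinib and 1.54, 1.80 and 2.03 FPKM in controls, a log2 difference of 1.45 ± 0.09 (SE, adjusted p = 2.37e-05). HIST1H2AI shares 60.1% of its 75-base windows with other genes, so its reads could have been divided among copies. HIST3H2A, from the small HIST3 cluster, had 32.6, 27.0 and 27.7 FPKM with dacomitinib and 16.1, 10.5 and 9.88 FPKM in controls. Its groups did not overlap, and its log2 difference was 1.22 ± 0.18 (SE, adjusted p = 0.00107). HIST1H2AG and HIST1H2AE also rose, by 0.63 and 1.06 on the log2 scale. The call for HIST1H2AE rests on 133 fragments over the dacomitinib libraries and 47 over the controls, and it was lost when dacomitinib library 1 (adjusted p = 0.0873), dacomitinib library 3 (0.0677) or control library 2 (0.0567) was left out, and without a filter on low values (0.0753).

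H2B, the partner of H2A in the nucleosome, was the class with the most tested genes and the most mixed directions. Of 13 tested, 7 were higher, 3 lower and 3 in neither direction. Under TPM (FPKM scaled to the same sum in each library) 9 were higher and 1 lower, but TPM also raised the median of all genes tested. HIST1H2BD had 79.7, 64.3 and 69.3 FPKM with dacomitinib and 21.3, 30.002 and 22.3 FPKM in controls. This was a log2 difference of 1.51 ± 0.14 (SE, adjusted p = 0.000145) with no overlap. HIST1H2BF gave the largest rise of the class, from a low level. It had 4.50, 6.60 and 4.32 FPKM with dacomitinib and 0.650, 1.14 and 0.853 FPKM in controls, a log2 difference of 1.70 ± 0.17 (SE, adjusted p = 0.000205). HIST2H2BE had 17.7, 15.8 and 12.8 FPKM with dacomitinib and 8.53, 8.87 and 6.32 FPKM in controls, again without overlap, and its log2 difference was 0.88 ± 0.15 (SE, adjusted p = 0.00221). The other 4 higher H2B genes were HIST1H2BE, HIST1H2BG, HIST2H2BF and HIST3H2BB, with log2 differences of 0.84, 0.80, 1.17 and 0.44. Exons of HIST1H2BE overlap those of AL353759.1 and exons of HIST2H2BF those of FCGR1A, and the sources used here do not give the strand used in counting, so their values are uncertain. Of the 3 uncalled H2B genes, HIST1H2BN had 1.49 ± 0.169 FPKM with dacomitinib and 0.966 ± 0.0985 FPKM in controls (SD, n = 3 each), and its exons overlap those of HIST1H2AK and HIST1H2AL. The groups of HIST1H2BN did not overlap, and it was called higher under TPM (adjusted p = 0.0159), median ratio scaling (0.035) and voom (0.00144). HIST1H2BO had 17 fragments over the dacomitinib libraries and 33 over the controls, with overlapping groups. The call for HIST3H2BB was lost when any library other than control library 2 was left out, with adjusted p-values of 0.0591 to 0.119, without a filter (0.0932) and under quantile normalization (0.096).

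By FPKM the most abundant member of all, HIST1H2BK went the other way from HIST1H2BD. By fragments, HIST1H2AC led with dacomitinib (5636, against 2054 of HIST1H2BK) and HIST1H2BK led in controls (2311, against 1969). HIST1H2BK had 119, 95.7 and 105 FPKM with dacomitinib and 135, 149 and 126 FPKM in controls, with no overlap. Its log2 difference was -0.36 ± 0.09 (SE, adjusted p = 0.0147), and this call was lost under TPM (-0.05, adjusted p = 0.585), quantile normalization (-0.20, adjusted p = 0.0592) and limma-voom on fragments recovered from the FPKM (-0.19, adjusted p = 0.0584). HIST1H2BK shares 50.5% of its windows with other genes. HIST1H2BJ fell further, with 2.45, 3.17 and 4.11 FPKM in the dacomitinib libraries, against 8.33, 10.4 and 10.4 FPKM in controls. Its log2 difference was -1.35 ± 0.16 (SE, adjusted p = 0.00038). HIST1H2BH had 2.70, 2.37 and 1.51 FPKM with dacomitinib and 3.87, 4.38 and 3.50 FPKM in controls. All dacomitinib values of HIST1H2BH were below all control values, and its log2 difference was -0.64 ± 0.16 (SE, adjusted p = 0.0116), a call lost under TPM (adjusted p = 0.0586).

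H3 genes, whose product carries the histone tail best known for methylation and acetylation marks, gave 3 higher and 1 lower call among 5 tested. HIST1H3E had 14.1, 14.0 and 13.3 FPKM with dacomitinib and 2.79, 3.17 and 1.80 FPKM in controls. The dacomitinib mean was 5.32 times the control mean, with a log2 difference of 2.06 ± 0.14 (SE, adjusted p = 4.15e-05), the largest rise of any tested member on the log2(FPKM + 1) scale. As a ratio of means, HIST1H2BF was higher still, at 5.84. HIST1H3H had 13.3, 10.4 and 6.92 FPKM with dacomitinib and 3.71, 4.46 and 3.57 FPKM in controls. Its dacomitinib values were widely spread but did not reach the controls, with a log2 difference of 1.15 ± 0.21 (SE, adjusted p = 0.00298). HIST1H3G had the largest fall of any tested member, on that scale and as a ratio of means, with 0.967, 1.03 and 0.739 FPKM with dacomitinib and 4.75, 4.06 and 4.32 FPKM in controls. The control mean was 4.81 times the dacomitinib mean, with a log2 difference of -1.49 ± 0.10 (SE, adjusted p = 3.96e-05). HIST2H3D had 3.78, 1.17 and 0.419 FPKM with dacomitinib and 0, 0.947 and 1.32 FPKM in controls, so its libraries spread more within a group than between groups. HIST3H3 was also higher, by 0.64 on the log2 scale, from 50 fragments over the dacomitinib libraries and 20 over the controls. This call was lost when dacomitinib library 1 (adjusted p = 0.0642), dacomitinib library 3 (0.0696) or control library 1 (0.0623) was left out. It was also lost without a filter on low values (0.053), under quantile normalization (0.0622) and with voom (0.0688).

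H4, which pairs with H3 in the nucleosome core, gave 3 higher calls, 0 lower and 3 in neither direction among 6 tested genes. Under TPM 5 of the 6 were higher, HIST1H4K (adjusted p = 0.0435) and HIST4H4 (0.00892) among them. TPM also raised the median of all genes tested, and the log2 difference of HIST4H4 on FPKM was 0.12. HIST1H4H had 26.3, 27.1 and 25.4 FPKM with dacomitinib and 5.68, 6.18 and 5.35 FPKM in controls. Its libraries agreed closely within each group, and its log2 difference was 2.02 ± 0.06 (SE, adjusted p = 1.48e-06). HIST1H4D had 3.45, 4.25 and 4.24 FPKM with dacomitinib and 1.36, 0.831 and 1.74 FPKM in controls, a log2 difference of 1.12 ± 0.16 (SE, adjusted p = 0.00112). This call rests on 63 fragments over the dacomitinib libraries and 18 over the controls. HIST1H4E rose by 1.07. The controls' most abundant H4 gene, HIST1H4I, had 18.3, 13.8 and 14.2 FPKM with dacomitinib and 20.6, 20.9 and 14.1 FPKM in controls. These groups overlapped, with a log2 difference of -0.24 ± 0.17 (SE, adjusted p = 0.269). Without control library 3 HIST1H4I was called lower, at -0.42 (adjusted p = 0.0338), and under TPM its value was 0.06 (adjusted p = 0.74). HIST1H4K, at 8.79 ± 3.27 FPKM with dacomitinib and 6.72 ± 1.15 FPKM in controls (SD, n = 3 each), shares 100% of its windows with other genes.

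H1 is the linker histone that binds where DNA enters and leaves the nucleosome, and a single H1 gene could be tested. HIST1H1C had 77.7, 55.4 and 64.9 FPKM with dacomitinib and 28.9, 33.3 and 26.1 FPKM in controls. Its groups did not overlap, and its log2 difference was 1.13 ± 0.14 (SE, adjusted p = 0.000482). The other 5 H1 genes together had 36 fragments over the dacomitinib libraries and 22 over the controls.

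Summed over all members of a class, tested or not, the FPKM of H1, H2A, H3 and H4 were higher with dacomitinib, with no overlap between groups. H2A summed to 115 ± 7.41 FPKM with dacomitinib and 47.5 ± 5.81 FPKM in controls (SD, n = 3 each). H1 summed to 67.0 ± 11.6 FPKM with dacomitinib and 30.1 ± 3.89 FPKM in controls, nearly all of it HIST1H1C (means of 66.0 and 29.4 FPKM). The sums of H3 were 30.5 ± 5.05 FPKM with dacomitinib and 14.7 ± 1.49 FPKM in controls, and those of H4 were 63.1 ± 5.34 FPKM with dacomitinib and 38.2 ± 5.84 FPKM in controls. The linker histone and H2A had the largest ratios of class sums, at 2.23 and 2.42, and H2B the smallest, at 1.15. For H2B the sum was 213 to 249 FPKM with dacomitinib and 180 to 221 FPKM in controls, and the groups overlapped. Without HIST1H2BK the H2B sum was 121 ± 8.24 FPKM with dacomitinib and 61.3 ± 9.25 FPKM in controls, with no overlap. Under TPM or median ratio scaling the H2B groups did not overlap either way, with 930 to 1011 TPM with dacomitinib and 623 to 742 TPM in controls over all 18 genes. The share of fragments on these 18 genes did not overlap either, at 0.0199% to 0.0222% with dacomitinib and 0.0114% to 0.0144% in controls. No test was run on the sums. All 71 genes together took 0.0588% ± 0.00291 of the fragments with dacomitinib and 0.0280% ± 0.00337 in controls (SD, n = 3 each).

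**Figure D2:**
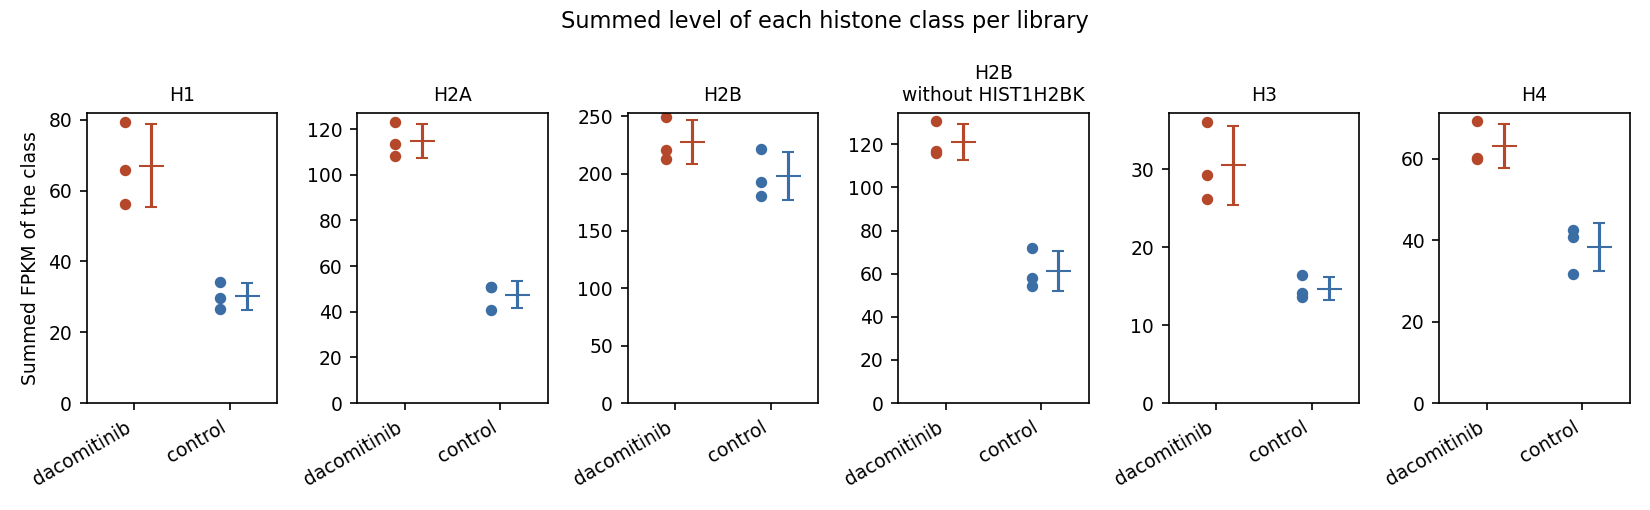
Summed FPKM of all members of each histone class in each library, with dacomitinib left of control. Points are libraries, horizontal lines are means and error bars are SD of 3 libraries. The groups are apart in every panel other than H2B, where they overlap until HIST1H2BK, the gene with the highest FPKM, is left out.

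By cluster, HIST1 held 23 of the 30 tested genes and gave 14 higher and 4 lower calls. All 4 lower members of the family lie in it, the cluster with the most tested genes. Among all genes tested, 25.4% were called higher and 34.8% lower. HIST2 gave 2 higher calls among 3 tested, and all 3 HIST3 genes were higher. HIST4H4, alone in its cluster, had 3.97 ± 0.305 FPKM with dacomitinib and 3.58 ± 0.240 FPKM in controls (SD, n = 3 each) and was not called (adjusted p = 0.23). Of the lower genes, HIST1H2BH (chr6:26251651-26253710) and HIST1H3G (chr6:26269405-26271815) are neighbours among the members. HIST1H3F (chr6:26250195-26250605), next to HIST1H2BH, had 0 fragments over the dacomitinib libraries and 14 over the controls. HIST1H4H (chr6:26277609-26285638) and HIST1H3E (chr6:26224199-26227473), on either side of this stretch, rose. This stretch was chosen after its values were seen.

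The other 41 genes lay below the mean of 1 FPKM, and 12 of them had 0 fragments in all 6 libraries. Together the 41 had 225 fragments over the dacomitinib libraries and 179 over the controls. More fragments fell on the dacomitinib libraries for 16 genes and on the controls for 12, and 1 had equal numbers. HIST2H4B had the most, with 59 over the dacomitinib libraries and 71 over the controls. It shares 97.1% of its windows with other genes. HIST1H2BL had 30 fragments with dacomitinib and 3 in controls, HIST1H3J had 20 with dacomitinib and 6 in controls, and HIST1H1D had 19 with dacomitinib and 2 in controls. HIST1H3B leaned the other way, with 11 fragments with dacomitinib and 20 in controls. No test was run on these sums, which are over 3 libraries a group. HIST1H4C had 1 fragment over the dacomitinib libraries and 2 over the controls.

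Which members were measurable went with their annotation. The gene model of 33 members covers the coding region alone, and 27 of these were below the threshold for testing. A poly(A) signal stood at the end of an annotated transcript of 23 members, and 16 of these were tested, with 11 higher and 3 lower. Among all genes tested, 25.4% were called higher and 34.8% lower. Of the 21 genes with over 1000 bases, 17 were tested, and of the 50 shorter genes 13 were. The longer genes summed to 187 ± 11.8 FPKM with dacomitinib and 91.6 ± 13.05 FPKM in controls (SD, n = 3 each), a ratio of 2.04. The 50 shorter genes, HIST1H2BK among them, summed to more in both groups. They had 316 ± 38.1 FPKM with dacomitinib and 237 ± 22.9 FPKM in controls (SD, n = 3 each), a ratio of 1.34. The 6 tested genes with a model of the coding region alone were HIST1H2BK, HIST1H1C, HIST1H4K, HIST1H4D, HIST1H2BO and HIST2H3D. Of these, HIST1H2BK and HIST1H1C, with models of 381 and 642 bases, had the highest levels. The rest of their mRNA is not part of these models. Among the 5 members known from other work to give polyadenylated mRNA, HIST1H1C, HIST1H2AC, HIST1H2BD and HIST2H2BE were higher and HIST1H2BK lower.

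**Figure D3:**
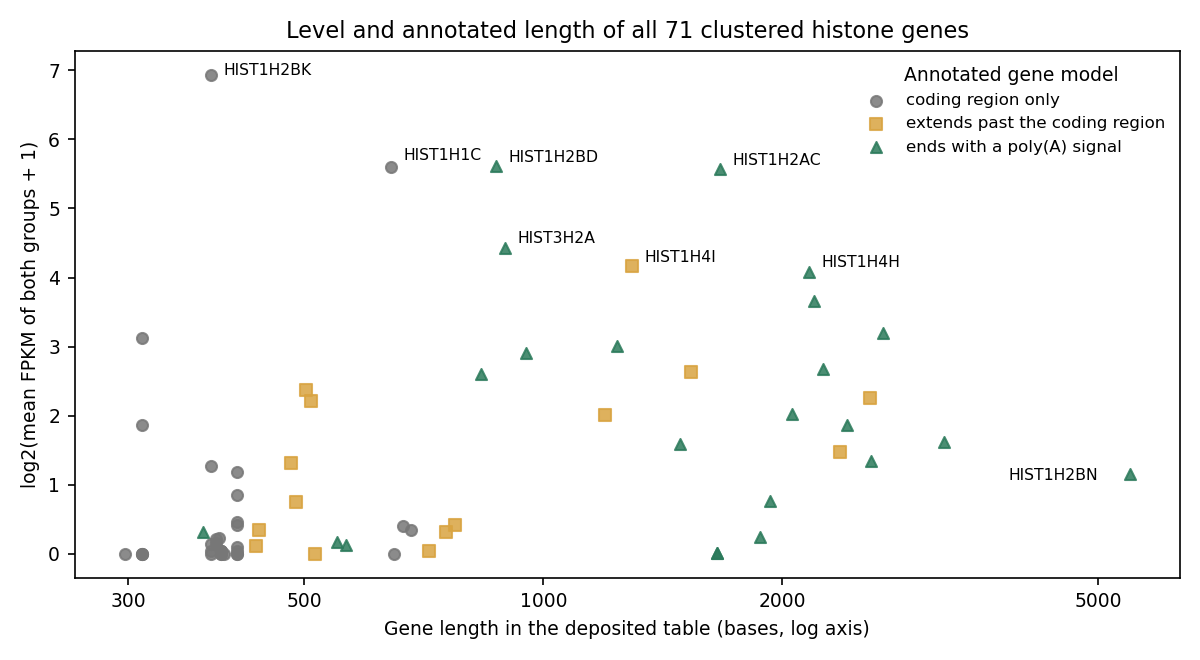
Mean level of all 71 members over both groups, as log2(mean FPKM + 1), against gene length in bases on a log axis. Marker shapes give the annotated gene model. Most genes at the bottom left, with little or no signal, are short models of the coding region alone, and HIST1H2BK and HIST1H1C stand above them.

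The sources used here do not give how RNA was selected for the libraries. Of 7 small RNAs without a poly(A) tail (RN7SK, RMRP, RPPH1, RN7SL1, RN7SL2, TERC and RNU7-1), 6 were listed at 0 in all 6 libraries. RN7SL2 had 34.9, 35.6 and 33.5 FPKM with dacomitinib and 32.5, 37.4 and 94.8 FPKM in controls. Control library 3 was high and the groups overlapped. What these libraries hold of histone mRNA that ends at the stem-loop was not tested.

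Many H2A and H2B genes stand head to head with 1 promoter region between them. Among the members, 12 head-to-head pairs with starts within 500 bases of each other were annotated, each of an H2A with an H2B gene other than HIST1H3J with HIST1H2BO. Both genes were tested in 4 of the pairs. In HIST3H2A with HIST3H2BB, and in HIST1H2AE with HIST1H2BG, both genes were higher. In the other 2 pairs the H2A gene was called higher and the H2B gene was not. HIST1H2AC rose, while HIST1H2BC had 5.62 ± 0.311 FPKM with dacomitinib and 4.57 ± 0.693 FPKM in controls (SD, n = 3 each), a log2 difference of 0.26 ± 0.10 (SE, adjusted p = 0.0637). HIST1H2BC was called higher under TPM (0.60, adjusted p = 0.00362), quantile normalization (0.35, adjusted p = 0.0183) and median ratio scaling (0.33, adjusted p = 0.0268), and when control library 2 was left out (0.34, adjusted p = 0.0268). HIST1H2AG had 6.79 ± 0.828 FPKM with dacomitinib and 4.03 ± 0.480 FPKM in controls (SD, n = 3 each) and rose, while HIST1H2BJ fell. The promoters of the H2A genes of these 2 pairs, from 250 bases before to 50 after the start, are shown because each lies between an H2A gene that was called higher and an H2B gene that was not. The difference within a pair was not tested. They are from RefSeq (GRCh38.p14), and capitals mark the octamer ATTTGCAT, the box CCAAT and the box TATAAA on either strand, where neighbouring matches can overlap.
HIST1H2AC (chr6:26123922-26124221, plus strand): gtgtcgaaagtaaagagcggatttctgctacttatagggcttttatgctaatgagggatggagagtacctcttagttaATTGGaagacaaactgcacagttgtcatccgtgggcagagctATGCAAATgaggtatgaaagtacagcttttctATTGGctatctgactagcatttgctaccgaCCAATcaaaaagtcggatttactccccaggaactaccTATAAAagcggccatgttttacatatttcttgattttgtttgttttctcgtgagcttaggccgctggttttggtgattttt
HIST1H2AG (chr6:27132793-27133092, plus strand): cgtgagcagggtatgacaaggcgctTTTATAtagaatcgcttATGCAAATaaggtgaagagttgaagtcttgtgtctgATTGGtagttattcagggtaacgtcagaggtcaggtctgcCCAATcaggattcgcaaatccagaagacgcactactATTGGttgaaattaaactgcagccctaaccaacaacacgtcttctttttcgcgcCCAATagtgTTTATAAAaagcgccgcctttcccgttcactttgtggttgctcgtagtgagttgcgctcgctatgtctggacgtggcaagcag
Each holds the octamer once, and CCAAT 3 times in HIST1H2AC and 4 times in HIST1H2AG.

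Promoters were found for 61 of the 71 members. The octamer, a binding motif of OCT1 known from H2B promoters, was in 14 of 18 H2B promoters and 11 of 14 H2A promoters. It was in 0 of 13 H4 promoters and 0 of 6 H1 promoters, and in 1.80% of the 27305 promoters of all genes. The 1 match among 10 H3 promoters was that of HIST1H3D, for which RefSeq gives the same window as for HIST1H2AD, so it is no separate promoter. Windows of head-to-head genes also overlap, so 1 octamer can be counted for both an H2A and an H2B gene, as for HIST1H2AC and HIST1H2BC. The H2A and H2B counts are therefore not of separate octamers. CCAAT was in each promoter found for H1, H2A, H2B and H3 genes and in 3 of 13 H4 promoters, and in 35.7% of those of all genes. TATAAA was in 65.6% of the members' promoters and 11.95% of those of all genes. Of the 13 tested H2A and H2B genes with the octamer, 8 were higher and 3 lower (HIST1H2BH, HIST1H2BJ and HIST1H2BK). Of the 5 without it, 4 were higher and 0 lower. Among all genes tested, 25.4% were called higher and 34.8% lower. Whether the calls go with the octamer was not tested, and only 5 genes lack it. The 13 include pairs that share an octamer: HIST1H2AC with HIST1H2BC, HIST1H2AE with HIST1H2BG, and HIST1H2AG with HIST1H2BJ.

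Genes that supply, process and deposit histones were mostly lower. From a list of 37, 36 were tested, with 27 lower and 3 higher and a median log2 difference of -0.48. Of all genes tested, 34.8% were called lower and 25.4% higher. SLBP, named outside the rule for its role at the stem-loop, had 15.9, 15.6 and 14.7 FPKM with dacomitinib and 37.2, 34.6 and 32.4 FPKM in controls. All dacomitinib values were below all controls, with a log2 difference of -1.12 ± 0.06 (SE, adjusted p = 1.52e-05). On the log2(FPKM + 1) scale the largest falls were of ASF1B, a chaperone of H3 and H4 (4.52 ± 1.05 FPKM with dacomitinib, 41.1 ± 1.89 FPKM in controls), and of the CAF-1 subunit CHAF1A (4.38 ± 0.376 FPKM with dacomitinib, 22.8 ± 1.55 FPKM in controls, SD, n = 3 each). CHAF1B, another CAF-1 subunit, and HAT1, which acetylates new H4, followed with log2 differences of -1.96 and -1.24. As a ratio of means the fall of CHAF1B, at 9.06, exceeded that of CHAF1A, at 5.21. The 3 higher genes were HINFP, a transcription factor of H4 genes (0.29), TUT7, which adds uridines to RNA ends (0.18), and the H2A-H2B chaperone NAP1L1 (0.14). Under TPM, which raised the median of all genes tested to 0.23, the list gave 8 higher and 17 lower calls. The 3 higher calls were unstable: 1 was left without a filter on low values, with a replicate block, and without control library 3, dacomitinib library 2 or dacomitinib library 3, and 0 without control library 1.

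Histone variants, which do not carry the HIST cluster symbols and are mostly not tied to S phase, were mainly lower. Of 10 tested, 8 were lower and 1 higher, with a median log2 difference of -0.54, and 6 lower and 2 higher under TPM. H2AFX, the variant phosphorylated at DNA breaks, had 9.56 ± 2.71 FPKM with dacomitinib and 83.8 ± 5.13 FPKM in controls (SD, n = 3 each), and the centromeric variant CENPA had 1.62 ± 0.400 FPKM with dacomitinib and 18.4 ± 1.37 FPKM in controls. H2AFZ and H2AFV, both of the H2A.Z family, fell by 1.75 and 1.06 on the log2 scale. H1F0, a linker histone known from resting and differentiated cells, rose by 0.58 ± 0.10 (SE, adjusted p = 0.00205). Of 20 other genes of DNA replication and S phase, 19 were lower and 0 higher, with a median of -2.25. For both lists, the shares among all genes tested were 34.8% lower and 25.4% higher. RRM2, a ribonucleotide reductase subunit, had 0.415 ± 0.0617 FPKM with dacomitinib and 20.7 ± 2.03 FPKM in controls, and CDC45, CCNA2 and MCM7 had log2 differences of -3.47, -3.34 and -3.20. The difference between these lists and the clustered genes was not tested.

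**Figure D4:**
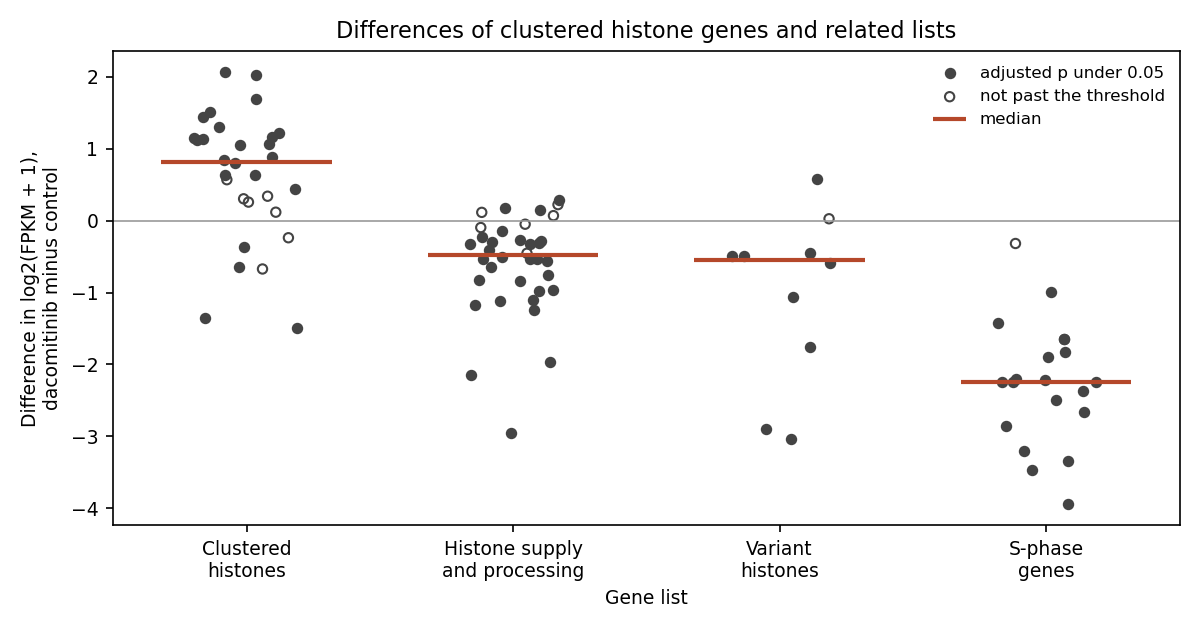
Difference in log2(FPKM + 1), dacomitinib minus control, of each tested gene in 4 lists. Filled points passed an adjusted p of 0.05 (limma), open points did not, and red lines are medians. The clustered histones have a median of 0.82 and the other 3 lists lie mostly below 0, with the S-phase genes lowest at -2.25.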

How the data were processed

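RNA-seq of 3 dacomitinib and 3 control samples of HaCaT cells was analysed from one deposited table of FPKM, made by the authors. The submitters' processing notes name build GRCh38 and the tools DESeq2 1.20.0, featureCounts, HISAT2, fastp and CASAVA, without a role for each. The deposited FPKM times gene length gave whole fragments for 100% of values (within 0.01), with 14960650 to 16179273 fragments per library. The size by which the authors' FPKM divide was 1.05 to 1.09 times a library's own sum with dacomitinib and 0.946 to 0.954 times in controls, so the libraries had been scaled before deposit.

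Control columns were matched by name. The other 3 columns carry a letter that no label uses, and by elimination they were taken as dacomitinib.

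Differences (dacomitinib minus control) were tested on the log2(FPKM + 1) scale by limma 3.58.1 (R 4.3.3) with its trend option. This scale understates changes of weakly expressed genes. The 13748 genes with a mean of at least 1 FPKM were fitted together, with Benjamini-Hochberg adjustment over all of them, a two-sided threshold of 0.05 and no covariates. The procedure was also run on simulated data in which far fewer genes changed than were called here. That run checked the code and does not bear on the calls. Members, lists and tests were chosen with earlier results of these data known. Values per library are given, in each class, for up to 2 members with the largest rise, 2 with the largest fall, the 2 most abundant and 5 known polyadenylated ones. Other lists are given as counts with up to 4 of the largest rises and falls. In all, 14 alternatives were tried.

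Gene positions of all 71 members were the same in GENCODE release 29, from which transcripts were read. Shared sequence was measured as 75-base windows of a member found in transcripts of other genes. Of the 71 members, 17 shared at least 50% of them, and exons of 15 members overlapped those of another gene. One symbol of the supply list was matched through a RefSeq synonym.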

Additional observations from a re-analysis of the deposited data

How the results depend on the processing

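Of the 23 calls among clustered histone genes, 18 held under each of the 14 alternatives that tested them. The 5 others were HIST1H2AE, HIST1H2BH, HIST1H2BK, HIST3H2BB and HIST3H3. The 19 higher calls became 10, and the 4 lower calls 2, with a mean of at least 5 FPKM, which left 15 members to test. TPM gave 23 higher and 2 lower calls, and the share of all genes called under TPM is not given here. The median difference of 0.82 became 1.09 with a pseudocount of 0.1, 0.22 without a filter on low values (59 members), 1.24 under TPM and 1.27 with voom on recovered fragments. The medians of all genes tested under the last 2 were 0.23 and 0.10. The cause of these shifts was not tested. HIST1H4I changed sign under TPM, at 0.064. For the supply and processing genes, the 3 higher calls became 1 without a filter, 8 under TPM and 5 with voom, and the 27 lower calls became 17 under TPM. Leaving out each library in turn gave 16 to 19 higher and 4 to 5 lower histone calls and medians of 0.73 to 0.93, with 0 to 3 higher and 25 to 27 lower supply calls. It gave 0 higher supply calls without control library 1, and 1 without control library 3, dacomitinib library 2 or dacomitinib library 3. A block on the replicate numbers kept 19 higher and 4 lower histone calls and left 1 higher supply call. Libraries with the same number did not deviate together (correlations of 0.0267, -0.0158 and 0.0402). At 3 libraries a group this cannot exclude a pairing, and the dacomitinib numbers only name columns. For genes with few fragments depth limits the comparison: at 3 libraries a group, the 41 members below the threshold had at most 130 fragments each over all 6.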
